A study of Mus musculus with 21 samples.

Results

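The 10 genes described here serve the housekeeping work of astrocytes, and they were followed across the forebrains of 6 groups of mice. They are the water channel gene Aqp4, the glutamate transporter genes Slc1a2 and Slc1a3, the glutamine synthetase gene Glul, the potassium channel gene Kcnj10, the connexin genes Gja1 and Gjb6, the enzyme genes Aldh1l1 and Aldoc, and S100b, which encodes a calcium-binding protein. The rule lists them by name and uses no measured value, but the members were chosen with earlier results of these data known. Counts of members called, set beside the shares of all genes, are therefore a description. Each of the 10 symbols matched 1 of the 55401 gene identifiers of the count table, and all 10 passed the filter on low counts in every comparison.

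All 21 mice carried human APOE in place of mouse Apoe on both alleles. The parental groups were E2H (APOE2), E3H (APOE3) and E4H (APOE4), with 3 mice each, taken at 9 to 10 months of age. The PS/E2H (APOE2), PS/E3H (APOE3) and PS/E4H (APOE4) mice, 4 per group, also carried the PS19 transgene, human tau with the P301S mutation driven by the mouse prion promoter, and were killed once their hindlimbs were paralyzed. The study kept its PS19 stock on a mixed strain background and its APOE lines on a single strain, and crossed them for the PS19 groups. Tau genotype, paralysis, age at death and strain background therefore cannot be told apart wherever PS19 mice are set against parental mice. No group with mouse Apoe was included, so each APOE comparison sets 1 human isoform against another. In the study's survival cohorts PS/E3H mice reached paralysis at a later median age than PS/E2H and PS/E4H mice. Isoform and age at death are therefore not separated wherever PS19 groups of different isoforms are compared, including the interactions. Whole forebrain RNA was sequenced as 1 library per mouse.

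Astrocytes clear glutamate from synapses through the transporters GLT-1 (Slc1a2) and GLAST (Slc1a3), and glutamine synthetase turns it into glutamine, which neurons take back. Their endfeet on blood vessels hold aquaporin-4 and the inward rectifier Kir4.1 (Kcnj10), which carry water and potassium, and connexin 43 (Gja1) and connexin 30 (Gjb6) join the cells into a network. Aldh1l1, a folate enzyme, and Aldoc, the brain form of the glycolytic enzyme aldolase, mark astrocytes throughout the brain, whereas S100b is also made by oligodendrocytes. Gfap and Vim, by contrast, encode intermediate filaments that rise when astrocytes become reactive.

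Total counts ran from 59265459 to 75932183 per mouse with a median of 63751715, and mitochondrial genes took 7.25% to 10.9% of them. E2H mouse 2 had the highest mitochondrial share and the lowest normalization factor. Y-linked transcripts were found in 4 libraries (5866 to 10256 counts, with 164 to 189 counts of Xist), 1 of E4H, 1 of PS/E2H and 2 of PS/E4H. The other 17 libraries held 12188 to 36358 counts of Xist and 3 to 34 Y-linked counts. In the study's methods these same numbers per group are given as the females and all other mice as males, so the libraries go against the stated sexes. Results that rest on these libraries were recomputed without them, as given beside each group of comparisons.

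The 10 genes were abundant, and their order by level was nearly the same in every mouse. On the FPKM scale, which divides by transcript length, the median over the 21 mice was 423 for Glul (328 to 584), 331 for Aldoc (220 to 432), 149 for Slc1a2 (116 to 186) and 94.3 for S100b (67.7 to 123). Slc1a3 followed at 51.9 FPKM, Kcnj10 at 39.1, Gjb6 at 25.0, Aqp4 at 21.3, Gja1 at 15.7 and Aldh1l1 at 15.4. Each of the first 4 genes stood above the next in 21 of 21 mice. Gjb6 and Aqp4 were the pair whose order changed most, with Gjb6 above Aqp4 in 7 of 21 mice, and Gja1 stood above Aldh1l1 in 17 of 21. All other levels are CPM, read counts scaled to a common library size with TMM factors, and they compare 1 gene between mice.

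**Figure D1:**
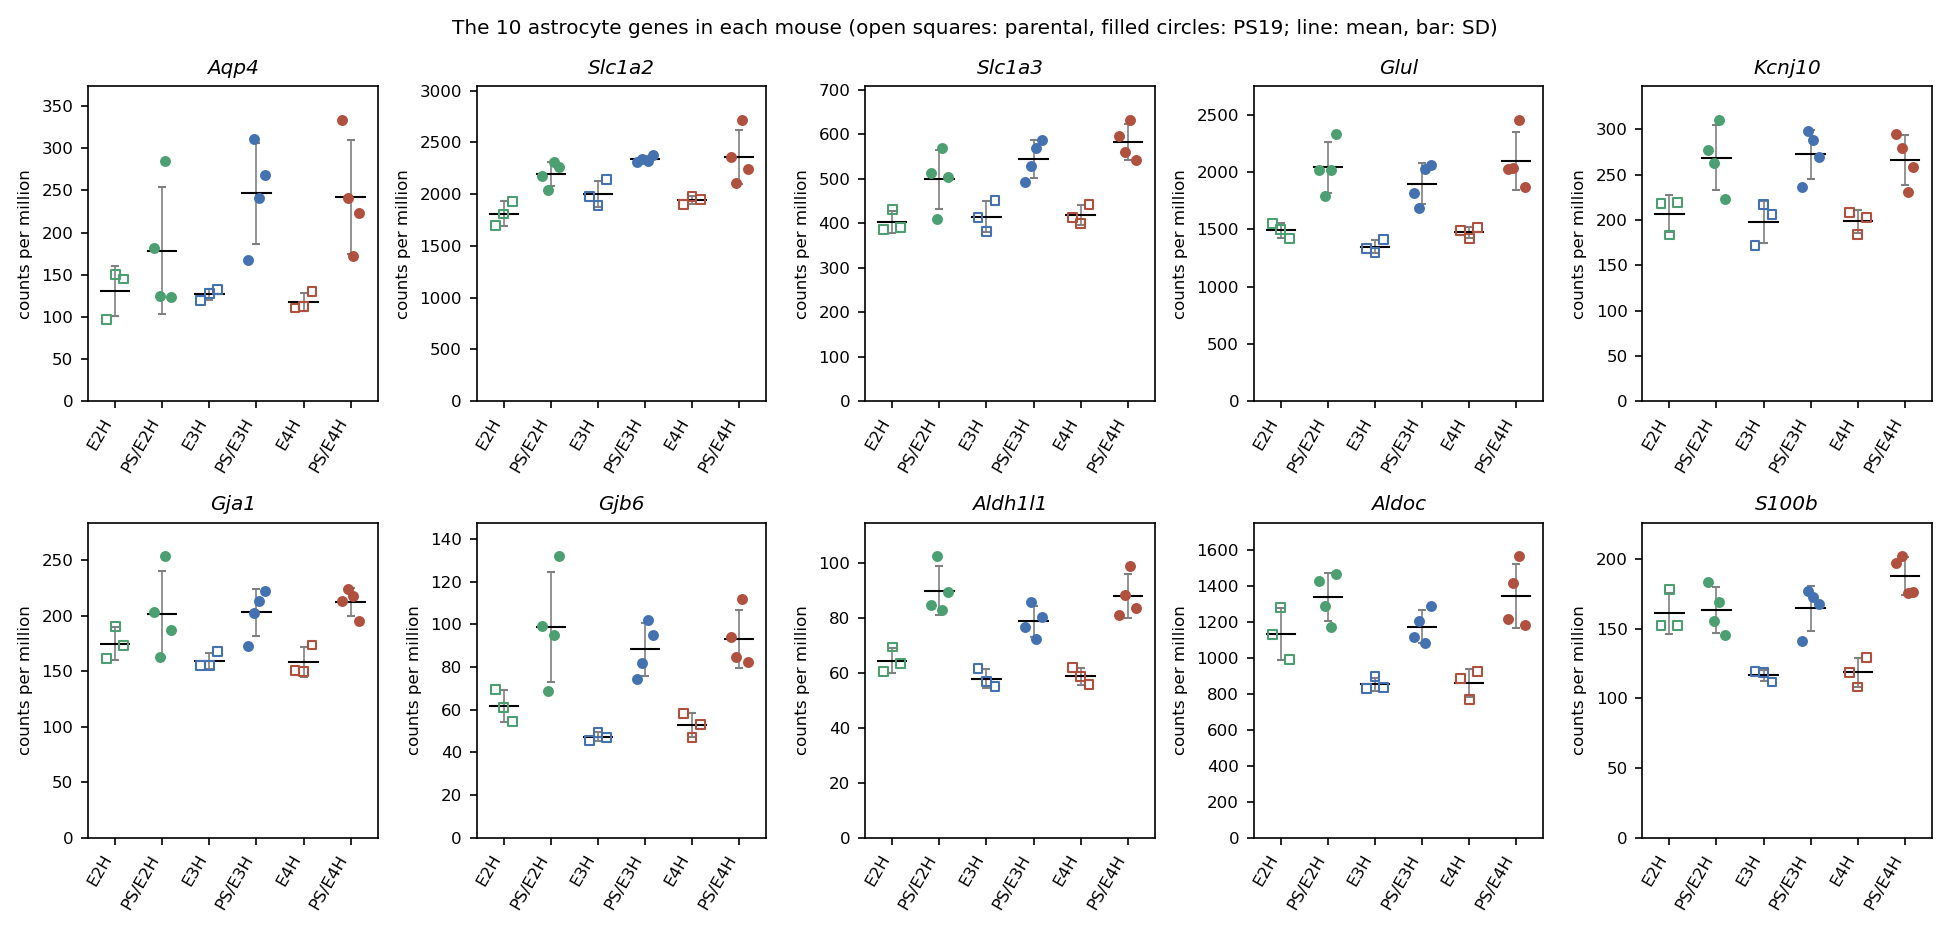
Level of each of the 10 genes in every mouse, 1 panel per gene, with CPM on the y axis and the 6 groups on the x axis. Points are mice, horizontal lines the group mean and error bars the SD (n = 3 parental and n = 4 PS19 mice). In all 10 panels the 3 PS19 means lie above the 3 parental means, and for Aqp4 the PS19 mice spread from 124 to 334 CPM.

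When the 6 groups were ordered by mean CPM, all 3 PS19 groups came before all 3 parental groups for 10 of 10 genes. PS/E4H had the highest mean for 6 genes, PS/E3H for 2 and PS/E2H for 2. The lowest mean was that of E3H for 6 genes, of E4H for 2 and of E2H for 2. Most neighbours in these orders were not separated, since the ranges of the mice did not overlap for only 8 of the 50 neighbouring pairs. Of these 8 pairs, 4 were a PS19 group beside a parental group, for Glul, Kcnj10, Gjb6 and Aldh1l1. These orders were computed for the members only. The share of all genes with the same order is not known, so the counts are a description.

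The genes lie on different chromosomes or far apart on the same one in the GRCm38 assembly. Glul (chr1:153899944-153909723) and Kcnj10 (chr1:172341210-172374085) share chromosome 1, and S100b (chr10:76253853-76261159) and Gja1 (chr10:56377330-56402513) share chromosome 10, all on the plus strand. Since all 10 were called in the fit over all mice, the bases upstream of their RefSeq starts were read for 9 of the 10 genes (GRCm38.p6, 250 bases each, with a second start for Aldoc). The Glul window (chr1:153899679-153899928, plus strand), the Slc1a3 window (chr15:8710808-8711057, minus strand) and the window of the second Aldoc start (chr11:78323948-78324197, plus strand) are shown 5′ to 3′. They belong to the most abundant member, a glutamate transporter and a glycolytic enzyme, and capitals mark a match to the STAT motif (TTCNNNGAA) or the GC box (GGGCGG) on either strand.
Glul: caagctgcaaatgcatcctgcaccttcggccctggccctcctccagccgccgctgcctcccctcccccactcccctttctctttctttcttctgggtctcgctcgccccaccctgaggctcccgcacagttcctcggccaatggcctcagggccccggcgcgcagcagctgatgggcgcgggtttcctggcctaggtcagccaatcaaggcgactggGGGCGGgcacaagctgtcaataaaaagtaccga
Slc1a3: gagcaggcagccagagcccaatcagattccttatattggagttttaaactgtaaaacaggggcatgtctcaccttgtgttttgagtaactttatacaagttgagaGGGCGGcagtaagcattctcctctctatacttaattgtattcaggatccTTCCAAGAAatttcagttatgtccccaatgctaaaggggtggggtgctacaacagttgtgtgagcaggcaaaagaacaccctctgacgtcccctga
Aldoc: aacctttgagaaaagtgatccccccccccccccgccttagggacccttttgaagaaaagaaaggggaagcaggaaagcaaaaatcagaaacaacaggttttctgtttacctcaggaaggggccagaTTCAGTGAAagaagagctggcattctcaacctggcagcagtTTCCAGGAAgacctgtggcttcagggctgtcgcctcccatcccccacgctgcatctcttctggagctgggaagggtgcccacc

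The 3 windows differed in what they held. Glul had 1 GC box and no STAT match, Slc1a3 had 1 STAT match, 1 GC box, 1 SOX match (ACAAT) and 1 TATA box (TATAAA), and the second Aldoc window had 2 STAT matches. Apart from Slc1a3 and this Aldoc window, no window that was read held a STAT match. The STAT motif was found for 2 of 9 member genes (22.2%) against 7.01% of 32817 promoters, the GC box for 5 of 9 (55.6%) against 32.7%, and the NFI motif (TTGGCA) for 2 of 9 (22.2%) against 12.3%. The SOX motif was found for 2 of 9 (22.2%, against 27.7%) and the TATA box for 1 of 9 (11.1%, against 12.4%). A member gene was counted if any of its windows matched, and Aldoc had 2, whereas the 32817 promoters were counted singly. The second Aldoc window lies within the annotated gene (chr11:78322968-78327781), and the first Aldoc window runs past the start of that gene. The Slc1a2 window (chr2:102706188-102706437) and the Aldh1l1 window (chr6:90550543-90550792) also lie within their annotated genes. The Slc1a2, Aldh1l1 and first Aldoc windows overlap an annotated untranslated region. Matched bases are a description of these windows, and no binding was measured.

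The first comparison asked how the 10 genes differed between PS19 mice and the parental mice of the same APOE line. In the fit over all 21 mice, with the APOE line as a second term, 10 of 10 members were higher in PS19 mice (edgeR quasi-likelihood test, Benjamini-Hochberg adjusted p from 2.02e-07 to 0.000972), where 11.4% of all 22863 genes tested were called higher. The log2 fold changes lay between 0.26 for Slc1a2 and 0.82 for Aqp4, with a median of 0.43 against a median of -0.006 over all genes. No member reached a fold change of 2 in this fit, which 2.24% of all genes did upward. In whole forebrain RNA, more astrocytes and more RNA per astrocyte cannot be told apart.

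By line, 9 of 10 members were called higher in PS/E4H mice than in E4H mice, beside 8.62% of all genes, and 9 of 10 in PS/E3H mice than in E3H mice, beside 3.35% of all genes. In PS/E2H mice edgeR called 0 of 10 against E2H mice, beside 0.669% of all genes, although 6 of 10 had an unadjusted p under 0.05 (10.7% of all genes) and DESeq2 called 3 (2.87% of its genes) and limma on FPKM 0. The median log2 fold change of the members was 0.54 in the APOE4 line, 0.45 in the APOE3 line and 0.34 in the APOE2 line. The ranges of the 2 groups did not overlap for 10 of 10 members in the APOE4 line (13.9% of all genes were higher without overlap), for 10 of 10 in the APOE3 line (10%) and for 4 of 10 in the APOE2 line (6.17%), namely Slc1a2, Glul, Kcnj10 and Aldh1l1. With the 4 Y-positive libraries left out, 8 of 10 members were called in the APOE4 line, beside 9.59% of all genes in either direction (Kcnj10 was lost, with a log2 fold change of 0.37 and adjusted p = 0.0891). In the APOE2 line 0 were called, beside 0.641% of all genes, and in the fit over all mice 10 of 10. The share of all genes called in this last refit is not given here.

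**Figure D2:**
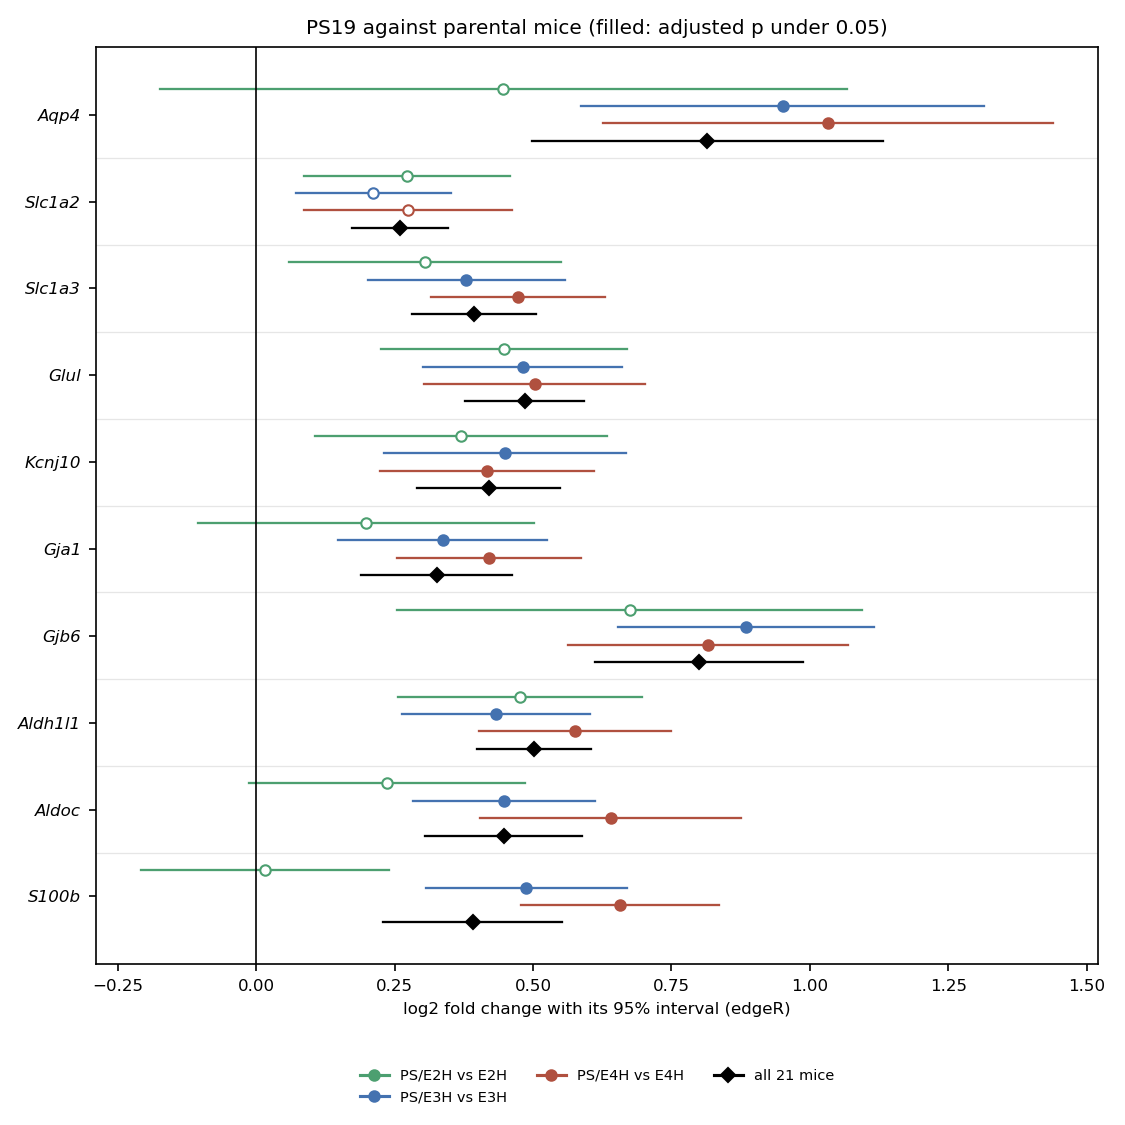
Log2 fold change of each gene in PS19 against parental mice (x axis) with its 95% interval, for the 3 APOE lines and for all 21 mice with the line as a term. Filled points have an edgeR adjusted p under 0.05. The intervals of Gja1, Aqp4, Aldoc and S100b reach below 0 in the APOE2 line, where S100b sits at 0.02.

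Aqp4, the astrocyte water channel, had the largest rise of the 10 genes in the APOE3 and APOE4 lines, and in each PS19 group its mice spread widely. It stood at 111, 113 and 131 CPM in E4H mice and at 334, 241, 172 and 223 CPM in PS/E4H mice. E3H mice had 119, 128 and 133 CPM and PS/E3H mice 168, 311, 242 and 268 CPM, so neither line overlapped. Aqp4 was 2.05-fold higher in PS/E4H mice (log2 1.03 ± 0.18 SE, adjusted p = 0.00567, edgeR), and it was the only member called with a fold change of at least 2 there, as 2.4% of all genes were. In PS/E3H mice it was 1.93-fold higher (log2 0.95 ± 0.16 SE, adjusted p = 0.0133). In the APOE2 line the values were 96.8, 150.2 and 145 CPM in E2H mice and 181, 125, 285 and 124 CPM in PS/E2H mice. Mice 2 and 4 of PS/E2H lay within the range of E2H, and the log2 fold change of 0.45 had a 95% interval of -0.17 to 1.07 (adjusted p = 0.646). It was 0.13 without PS/E2H mouse 3 and 0.27 without E2H mouse 1, and 0.70 without E2H mouse 2 and PS/E2H mouse 4.

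Glul, the enzyme downstream of the 2 glutamate transporters, had a larger log2 fold change than either in each line. Glul stood at 1488, 1419 and 1515 CPM in E4H mice against 2026, 2036, 2457 and 1868 CPM in PS/E4H mice, a log2 fold change of 0.50 ± 0.09 (SE, adjusted p = 0.00593, edgeR). E3H mice had 1333, 1300.4 and 1412 CPM and PS/E3H mice 1815, 1683, 2029 and 2062 CPM. E2H mice had 1549.7, 1499 and 1423 CPM and PS/E2H mice 2019, 1791, 2015 and 2336 CPM. All 12 PS19 mice lay above all 9 parental mice, whose highest value was 1549.7 CPM. The log2 fold change was 0.48 in the APOE3 line (adjusted p = 0.0122) and 0.45 in the APOE2 line, where it missed the threshold (adjusted p = 0.0915).

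Slc1a3, the transporter GLAST, ranged from 382 to 450.4 CPM in the 9 parental mice and from 409 to 632 CPM in the 12 PS19 mice. It rose by 0.47 ± 0.07 on the log2 scale in the APOE4 line (SE, adjusted p = 0.00253, edgeR) and by 0.38 ± 0.08 in the APOE3 line (adjusted p = 0.0269), and it had 0.31 ± 0.11 in the APOE2 line (adjusted p = 0.33). Slc1a2, the major glutamate transporter of the forebrain, had the smallest difference of the 10 genes in the fit over all mice. It stood at 1899, 1979 and 1945 CPM in E4H mice and at 2361, 2110.4, 2717 and 2239 CPM in PS/E4H mice. The groups did not overlap within any of the 3 lines, yet edgeR called Slc1a2 in no single line. Its log2 fold changes were 0.27 in the APOE4 line (adjusted p = 0.053), 0.21 in the APOE3 line (adjusted p = 0.0812) and 0.27 in the APOE2 line (adjusted p = 0.231). DESeq2 called it in the APOE4 line (adjusted p = 0.0113) and in the APOE3 line (adjusted p = 0.0142), and it gained a call in 4 of 14 and 2 of 13 alternatives there. Over all 21 mice it was 1.20-fold higher (log2 0.26 ± 0.04 SE, adjusted p = 9.77e-05).

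The connexin 30 gene Gjb6 had a larger log2 fold change in each line than its partner Gja1. Gjb6 stood at 58.3, 47.1 and 52.9 CPM in E4H mice and at 94.1, 84.6, 112 and 82.4 CPM in PS/E4H mice, and at 45.6, 49.5 and 47.1 CPM in E3H mice and 74.3, 81.7, 102 and 95.1 CPM in PS/E3H mice. The lowest PS19 mouse of each of these lines lay well above the highest parental mouse. It was 1.76-fold higher in the APOE4 line (log2 0.82 ± 0.11 SE, adjusted p = 0.00179, edgeR) and 1.85-fold higher in the APOE3 line (log2 0.88 ± 0.10, adjusted p = 0.00268). In the APOE2 line, E2H mice had 69.4, 61.2 and 54.4 CPM and PS/E2H mice 99.1, 69.0, 95.1 and 132 CPM, so PS/E2H mouse 2 fell just below E2H mouse 1 (log2 0.67 ± 0.19, adjusted p = 0.184). Gja1, the connexin 43 gene, ranged from 149.8 to 190.2 CPM in parental and from 163 to 253 CPM in PS19 mice. Its log2 fold changes were 0.42 in the APOE4 line (adjusted p = 0.00572), 0.34 in the APOE3 line (adjusted p = 0.0479) and 0.20 in the APOE2 line (adjusted p = 0.695). In the APOE3 line Gja1 lost its call in 10 of 13 alternatives and Slc1a3 in 7 of 13.

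Kcnj10, whose channel takes up potassium around active neurons, had log2 fold changes from 0.37 to 0.45 in the 3 lines and passed in those of APOE4 and APOE3. It ranged from 172 to 219 CPM in the 9 parental mice and from 224 to 310.5 CPM in the 12 PS19 mice, with no overlap. As for Glul, the share of all genes so separated is not known. The log2 fold changes were 0.42 ± 0.09 in the APOE4 line (SE, adjusted p = 0.0115, edgeR), 0.45 ± 0.10 in the APOE3 line (adjusted p = 0.0298) and 0.37 ± 0.12 in the APOE2 line (adjusted p = 0.257). In the APOE3 line it lost its call in 8 of 13 alternative analyses.

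Aldh1l1, the folate enzyme widely used to label astrocytes, had the smallest p of the members in the fit over all mice. It ranged from 55.2 to 69.5 CPM in the parental mice and from 72.3 to 103 CPM in the PS19 mice. Again there was no overlap, and the share of all genes so separated is not known. The log2 fold change was 0.58 ± 0.08 in the APOE4 line (SE, adjusted p = 0.00161, edgeR), 0.43 ± 0.08 in the APOE3 line (adjusted p = 0.0144) and 0.48 ± 0.10 in the APOE2 line, where it was the member closest to the threshold (adjusted p = 0.0674).

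Aldoc, the aldolase of brain glycolysis, rose in the APOE4 and APOE3 lines. E4H mice had 887, 771 and 923 CPM and PS/E4H mice 1215, 1417, 1566 and 1186 CPM (log2 0.64 ± 0.11 SE, adjusted p = 0.00415, edgeR). E3H mice had 830.1, 897 and 838 CPM and PS/E3H mice 1119, 1206, 1085 and 1292 CPM (log2 0.45 ± 0.07, adjusted p = 0.0115). E2H mice had 1130.1, 1281 and 991 CPM, and PS/E2H mice had 1431, 1289, 1172 and 1466 CPM. PS/E2H mouse 3 lay within the range of E2H, and the log2 fold change was 0.24 with a 95% interval of -0.01 to 0.49 (adjusted p = 0.498).

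S100b was the member whose log2 fold change differed most from line to line. E4H mice had 119, 108 and 129 CPM and PS/E4H mice 197, 202, 176 and 176 CPM, a 1.58-fold difference with the smallest adjusted p of the members in this line (log2 0.66 ± 0.08 SE, adjusted p = 0.000918, edgeR). E3H mice had 119, 119 and 112 CPM and PS/E3H mice 141, 177, 173 and 167 CPM (log2 0.49 ± 0.08, adjusted p = 0.0122). In the APOE2 line the 2 groups lay on top of each other, with 152, 178 and 152 CPM in E2H mice and 183, 156, 169 and 145 CPM in PS/E2H mice. The log2 fold change there was 0.02, with a 95% interval of -0.21 to 0.24 (adjusted p = 0.978). S100b overlaps Dip2a on the opposite strand, with 0 exon bases in common.

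The calls in the APOE3 line depended on the 3 E3H mice. Without E3H mouse 1, 2 or 3, edgeR called 1, 2 and 2 members, beside 0.522%, 1.18% and 0.957% of all genes, although all 10 log2 fold changes stayed above 0. Gjb6 was called in each of the 13 alternatives tried for this line. In the fit over all mice, all 10 members kept their call under each of 28 alternatives.

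Whether the difference between PS19 and parental mice itself depended on the APOE line was tested by 3 interactions over 14 mice each. edgeR called 0 members and 0 genes overall in all 3. At an unadjusted p under 0.05 there were 0 members for APOE4 against APOE3 (3.81% of all genes), 1 for APOE2 against APOE3 (5.72%) and 2 for APOE4 against APOE2 (10.1%). limma called 0 members in each, and DESeq2 called 1 member, S100b, for APOE4 against APOE2 (adjusted p = 0.00693, beside 0.493% of its genes) and 0 in the others. For S100b the log2 fold change was larger by 0.64 in the APOE4 line than in the APOE2 line (95% interval 0.36 to 0.92, unadjusted p = 0.000225, adjusted p = 0.207, edgeR). It was smaller by 0.47 in the APOE2 line than in the APOE3 line (log2 -0.47, 95% interval -0.76 to -0.18, unadjusted p = 0.00352, adjusted p = 0.843). Aldoc was the other member for APOE4 against APOE2 (log2 0.40, 95% interval 0.06 to 0.75, adjusted p = 0.433). For Aqp4 the interval was -0.22 to 1.38, which leaves room for a large difference or for none. Without the Y-positive libraries edgeR again called 0 members in each interaction. The count of 9, 9 and 0 members called by line comes from separate fits, and in these interactions edgeR called no difference between lines.

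The APOE isoforms were then compared with each other, in parental mice and in PS19 mice. These comparisons share groups with those above and with one another, so their values are given side by side. edgeR called 0 of 10 members in each of the 6 pairs and in each of the 3 fits over all mice with tau as a term, and 0 again in each that holds Y-positive libraries when these were left out. The shares of all genes called were 0.178% for E2H against E3H, 0.162% for E4H against E3H and 0.216% for E4H against E2H. Among PS19 mice they were 0.113% for PS/E2H against PS/E3H, 0.0197% for PS/E4H against PS/E3H and 0.119% for PS/E4H against PS/E2H. In the fits over all mice they were 3.31% for APOE2 against APOE3, 0.122% for APOE4 against APOE3 and 0.634% for APOE4 against APOE2.

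**Figure D3:**
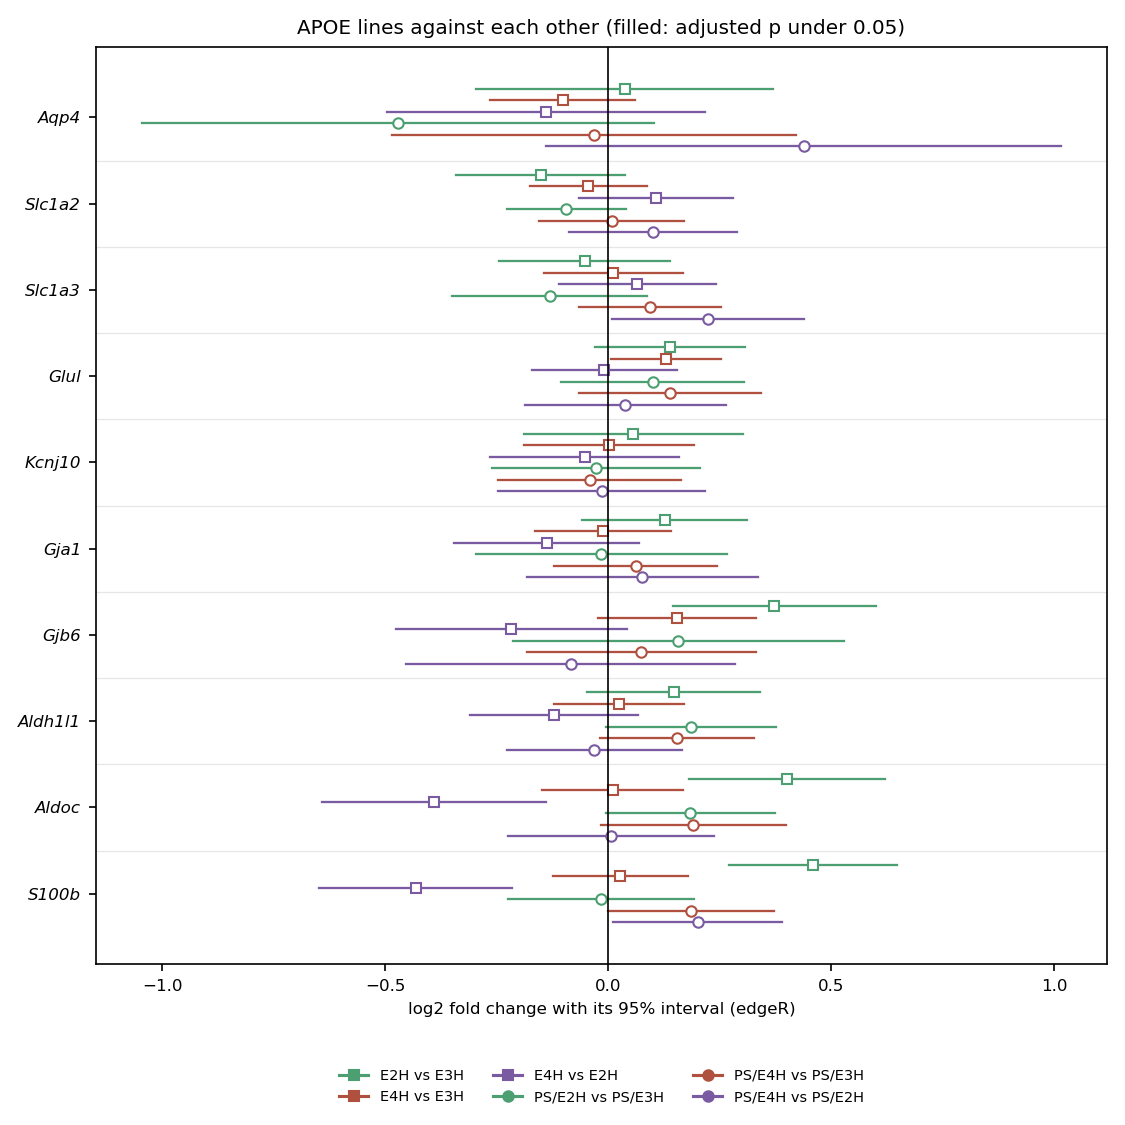
Log2 fold change of each gene (x axis) with its 95% interval in the 6 comparisons of 2 APOE groups, 3 among parental and 3 among PS19 mice. No point is filled, since 0 of 10 members passed an edgeR adjusted p under 0.05 in any of them. S100b and Aldoc lie right of 0 in E2H against E3H and left of 0 in E4H against E2H.

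In E2H against E3H mice, S100b, Aldoc and Gjb6 had an unadjusted p under 0.05 with higher values in E2H mice, and none of them passed after adjustment. The S100b values given above did not overlap between E2H and E3H (log2 0.46 ± 0.08 SE, unadjusted p = 0.000358, adjusted p = 0.116, edgeR). Aldoc differed by 0.40 (adjusted p = 0.218) and Gjb6 by 0.37 (adjusted p = 0.23) on the log2 scale, and Glul was the fourth member without overlap, beside 12.1% of all genes. At an unadjusted p under 0.05 there were 3 members in E2H against E3H (14.1% of all genes), 1 in E4H against E3H (6.67%) and 2 in E4H against E2H (12.4%). DESeq2 called 3, 0 and 2 members in these comparisons, beside 3.52%, 0.753% and 1.6% of its genes, and limma 0 in each. Against E2H mice, E4H mice had lower values of S100b (log2 -0.43, adjusted p = 0.276) and Aldoc (log2 -0.39, adjusted p = 0.346). Without E2H mouse 2, S100b was called in E2H against E3H with a smaller log2 fold change of 0.39 (adjusted p = 0.0393).

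S100b, which is also made by oligodendrocytes, was set beside the marker genes of these cells. Their 10 genes summed to 6854 to 7547 CPM in E2H mice against 5155 to 5704 CPM in E3H and 5626 to 6683 CPM in E4H mice. In PS19 mice the sums were 6460 to 7853 CPM in PS/E2H, 6866 to 7309 CPM in PS/E3H and 7691 to 9856 CPM in PS/E4H. In E2H against E3H all 10 had a positive log2 fold change with a median of 0.38, and 0 were called by edgeR, although 9 had an unadjusted p under 0.05. In PS/E2H against E2H, where S100b did not differ beyond its spread, 4 of the 10 were positive and 6 negative. No marker of this list was at 0 in any mouse. Other lists shifted in E2H against E3H as well, again with 0 called. Of the other astrocyte identity genes 11 were positive and 1 negative (median log2 0.23), and of the microglial markers 9 and 1 (median 0.08). Of the endothelial markers 1 was positive and 5 were negative (median -0.27). The mural markers had the largest median shift of these lists, with 1 positive and 4 negative (median -0.49). Of the choroid plexus and ependyma markers 0 were positive and 6 negative (median -0.18). The part of any of these cells in the S100b values was not tested.

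PS19 groups of different isoforms were killed at paralysis, so isoform and age at death were not separated in their comparisons. Among PS19 mice the differences between isoforms lay between -0.47 and 0.44 on the log2 scale, both of them for Aqp4. Without PS/E2H mouse 3 these limits were -0.79 and 0.75, and without the Y-positive libraries the members lay between -0.33 and 0.34. At an unadjusted p under 0.05 there were 0 members in PS/E2H against PS/E3H (11.7% of all genes), 0 in PS/E4H against PS/E3H (6.51%) and 2 in PS/E4H against PS/E2H (12.3%), namely Slc1a3 (log2 0.22, adjusted p = 0.394, edgeR) and S100b (log2 0.20, adjusted p = 0.386). DESeq2 and limma called 0 members in each of these 3 pairs. The 95% intervals for PS/E4H against PS/E3H were narrow for Slc1a2 (-0.16 to 0.17) and wide for Aqp4 (-0.49 to 0.42). With tau as a term, 5 members had an unadjusted p under 0.05 for APOE2 against APOE3 (21.5% of all genes), 1 for APOE4 against APOE3 (5.77%) and 1 for APOE4 against APOE2 (16.5%). The members nearest the threshold were Aldoc (log2 0.29 ± 0.08 SE, adjusted p = 0.0547) and Aldh1l1 (log2 0.17 ± 0.06, adjusted p = 0.0894), both higher with APOE2 than with APOE3. DESeq2 called 1 member for APOE2 against APOE3, beside 12.6% of its genes, and 0 in the other 2 fits, and limma called 0 in each.

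Of 45 genes that work with the members, in 5 pathway lists, 23 were higher and 6 lower in PS19 mice in the fit over all mice (edgeR), beside 11.4% higher and 9.63% lower of all genes, with a median log2 fold change of 0.20. By line, 18 were higher and 6 lower in the APOE4 line (8.62% and 6.98% of all genes), 10 higher and 1 lower in the APOE3 line (3.35% and 2.02%), and 0 were called in the APOE2 line, where 12 had an unadjusted p under 0.05. The lists were written with earlier results of these data known, so their counts are a description.

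Of 9 genes for the anchoring of aquaporin-4 and for the neighbouring GlialCAM-MLC1 complex, 3 were higher and 3 lower. Mlc1 and Hepacam, which encode the MLC1 and GlialCAM proteins of the perivascular membrane, rose by 0.61 ± 0.06 and 0.30 ± 0.04 on the log2 scale (SE, adjusted p = 4.24e-07 and 1.22e-05, edgeR). Agrn, which encodes the basement membrane proteoglycan agrin, had a log2 fold change of -0.34 ± 0.08 (adjusted p = 0.00246). Dmd, the dystrophin gene, had -0.28 ± 0.07 (adjusted p = 0.00543).

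Of 10 genes of ion and pH transport, 5 were higher and 2 lower. Fxyd1, which encodes the sodium pump regulator phospholemman, rose by 0.88 ± 0.12 on the log2 scale (SE, adjusted p = 9.52e-06, edgeR). Slc8a1, a sodium-calcium exchanger, had -0.27 ± 0.06 (adjusted p = 0.00405) and Kcnk10, a background potassium channel, -0.25 ± 0.08 (adjusted p = 0.0222). Of 12 genes of amino acid transport and the glutamate-glutamine cycle, 8 were higher and 1 lower. Slc7a2, a transporter of arginine and lysine, rose by 0.58 ± 0.11 (adjusted p = 0.000375) and the mitochondrial glutamate carrier Slc25a18 by 0.47 ± 0.08 (adjusted p = 0.00011).

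Of 10 genes of glucose, glycogen and lactate handling, 7 were higher and 0 lower. The glucose transporter gene Slc2a1 rose by 0.52 ± 0.08 (SE, adjusted p = 4.26e-05, edgeR) and the glycogen phosphorylase gene Pygb by 0.36 ± 0.05 (adjusted p = 3.67e-05) on the log2 scale. Of the 4 connexin genes other than Gja1 and Gjb6, edgeR called 0, with 0 at an unadjusted p under 0.05 and log2 fold changes from -0.25 to 0.26.

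**Figure D4:**
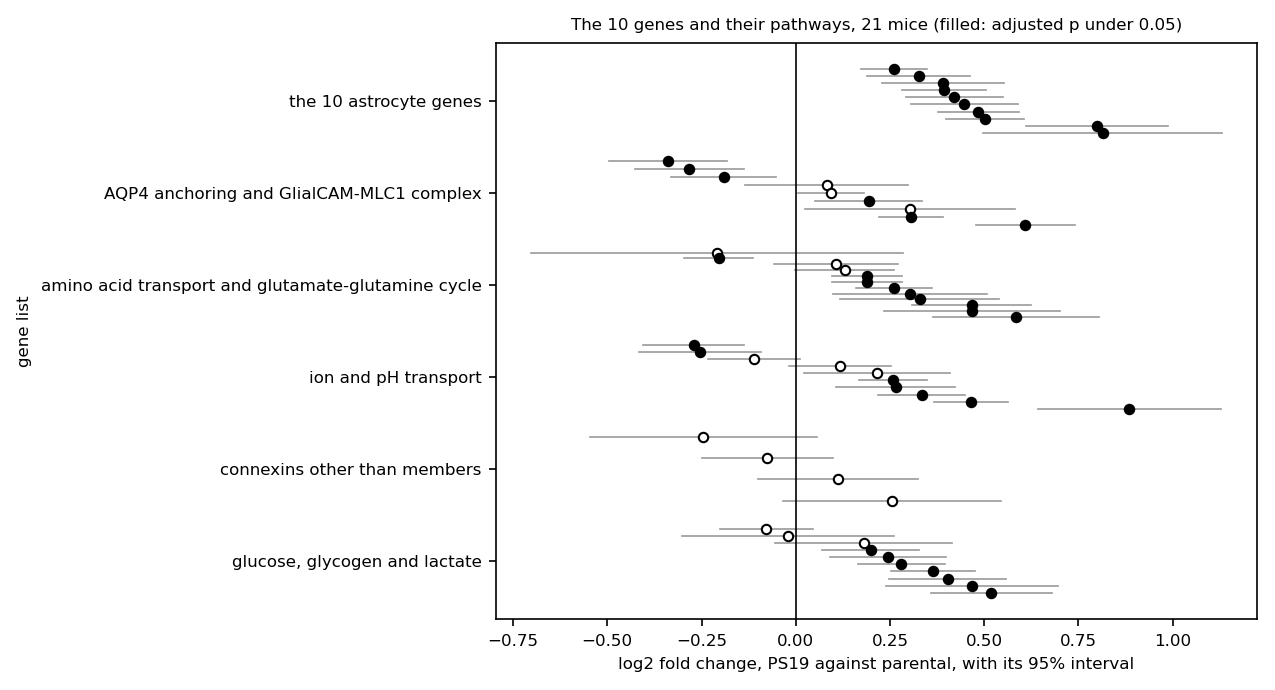
Log2 fold change in PS19 against parental mice, with the APOE line as a term (x axis), for the 10 genes and for the genes of the 5 pathway lists (y axis). Each point is a gene with its 95% interval, and filled points have an edgeR adjusted p under 0.05. The 10 genes lie between 0.26 and 0.82, whereas 3 of the 5 lists have called genes on both sides of 0.

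Markers of several cell states moved with the comparison of PS19 and parental mice. All 14 reactive astrocyte genes were higher in the fit over all mice, led in size among those named here by Gfap (log2 2.68 ± 0.14 SE, adjusted p = 2.26e-11, edgeR), the protease inhibitor gene Serpina3n (log2 2.14 ± 0.23) and Vim (log2 1.67 ± 0.21). Their summed level was 388 to 540.2 CPM in parental mice and 1309 to 4053 CPM in PS19 mice. Gfap ran from 197 to 336 CPM in parental and from 968 to 2482 CPM in PS19 mice, a far larger difference than that of any of the 10 members. Of 12 other astrocyte identity genes 10 were higher and 0 lower, with sums of 1543 to 2258 CPM in parental mice and 2188 to 3070.1 CPM in PS19 mice. Of the microglial markers 9 of 10 were higher (457 to 632 CPM against 785 to 1434 CPM), of the oligodendrocyte markers 6 of 10, and of the neuronal markers 2 of 10 were higher and 5 lower (7407 to 8013 CPM against 6611 to 7884 CPM). Called higher were also 2 of 5 precursor, 3 of 6 endothelial, 1 of 5 mural and 2 of 6 choroid plexus markers. No list had a marker at 0 in any mouse. The part of these shifts in cell makeup in the members' values was not tested.

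Within groups the 10 genes did not move as 1 block. Deviations of each mouse from its group mean ran from -0.52 to 0.76 on the log2 scale. Over 21 mice, the correlation of these deviations between 2 members ran from -0.45 to 0.87 across the 45 pairs, with a median of 0.24, and it was positive for 29. The closest pairs were Slc1a3 with Gja1 (r = 0.873), Glul with Gjb6 (r = 0.854) and Aqp4 with Gja1 (r = 0.757), and the most opposed was Kcnj10 with Aldh1l1 (r = -0.453). The points share library depth and normalization, and these values are a description without a test. Aqp4 deviated with Gfap (r = 0.783), whereas Glul (r = 0.0289) and Aldoc (r = 0.0139) had almost no relation to it. The most divergent mouse for Aqp4 was PS/E2H mouse 3, at 285 CPM against 124 to 181 CPM in the rest of its group.

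**Figure D5:**
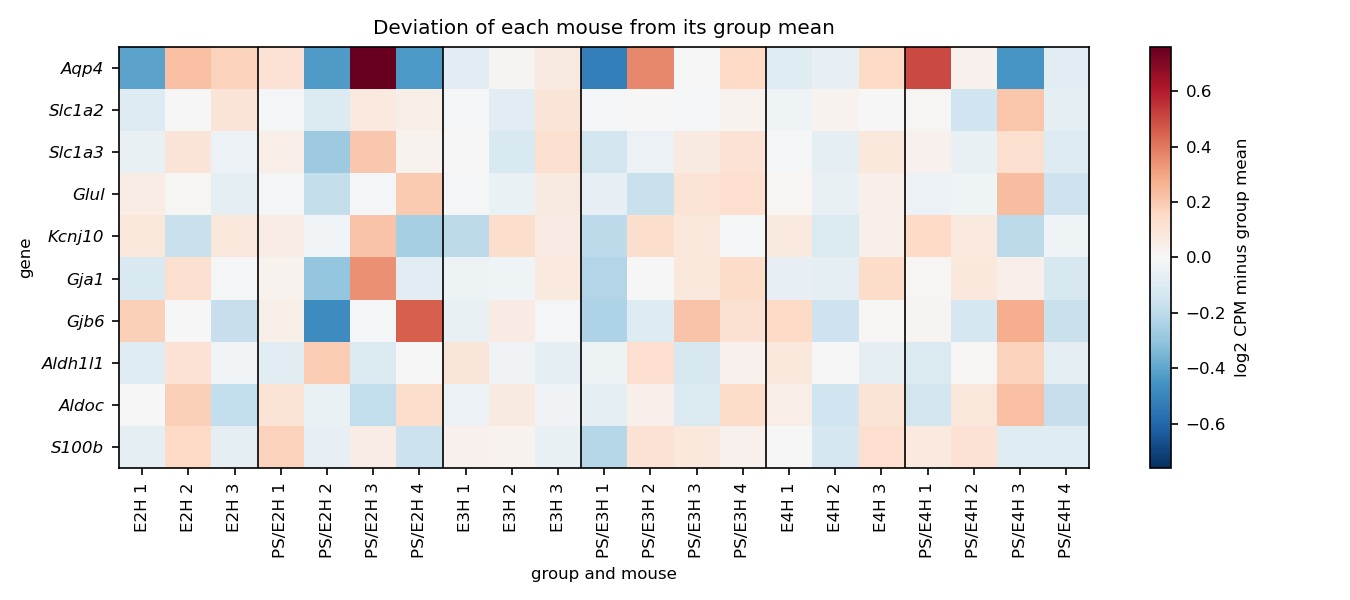
Log2 CPM of each gene (rows) in each of the 21 mice (columns) minus the mean of its group, with red above and blue below it. Values run from -0.52 to 0.76. Aqp4 shows the strongest colours within PS19 groups, and Slc1a3 and Gja1 share their pattern.

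The genes most like the members were found by correlating each of 22853 other genes with the mean profile of the 10 over the 21 mice. By level the closest included Sparcl1 (r = 0.971), Itgb5 (r = 0.970), G6pdx (r = 0.967) and Mlc1 (r = 0.967), with Gfap at r = 0.965. The levels follow the split between parental and PS19 mice, so many genes that differ between them score high. With group means removed, the closest were Sparcl1 (r = 0.853), Soat2 (r = 0.851), Slc20a2 (r = 0.851), Slc39a12 (r = 0.849) and Tns3 (r = 0.843), with Gfap at r = 0.633. Sparcl1, which encodes the astrocyte-secreted protein hevin, was first in both.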

How the data were processed

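Forebrain RNA of 21 mice in 6 groups, each mouse a separate sample named by group and replicate in its label, was analysed. Stranded poly(A) libraries were trimmed with cutadapt, aligned with HISAT2 (GRCm38.p5 per the labels) and assembled with StringTie, in versions not given in the sources used here. The authors deposited whole-number counts per gene, not normalized, whose derivation from the assembly is not stated, and FPKM values for 37538 of the 55401 identifiers. Reads that match more than 1 gene were divided as in the authors' counting. GENCODE M21 names 55141 identifiers.

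Counts were fitted with edgeR 4.0.16 in R 4.3.3 (TMM, filterByExpr with minimum count 10 and minimum total 15, quasi-likelihood F test, Benjamini-Hochberg over all genes tested). Each of 9 pairs was fitted on its own mice. Additive fits over 21 mice held APOE line and tau, and 3 interactions used 4 groups each. A gene was called at an adjusted p under 0.05, with folds of at least 2 counted separately. The fits of PS/E4H against E4H, of E4H against E3H and of tau over 21 mice were also run on simulated counts, whose outcome is not reported here. The 27 pairs of mice within groups held no identical libraries, and each member had at least 3094 counts in each mouse, so the spread between mice limits the precision. Alternatives were DESeq2 1.42.0, RLE factors, no filter, limma 3.58.1 on log2(FPKM + 1) with FPKM of at least 0.1, a replicate block, 1 fit of all 6 groups, each mouse left out, and 2 sets of libraries left out that were chosen after seeing the data.

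The genes named are the 10 members, up to 2 per pathway list and direction with the smallest p in the fit over all mice, Gfap, Vim, Serpina3n, and the 5 genes most like the members by each measure. Members and lists were chosen with earlier results of these data known. Some genes that this rule names are not reported here. Dip2a was named after its values were seen. Protein sequences were not used here, nor a promoter of Aqp4. Python 3.11.15, pandas 2.3.3, NumPy 2.4.6 and matplotlib 3.10.9 were used for tables and figures.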

Additional observations from a re-analysis of the deposited data

How the results depend on the processing

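Of the recomputed counts of members called, 288 stayed within 1.5 times the reported count and 15 moved, and of the recomputed log2 fold changes 1000 kept direction and side of the threshold, 41 lost the call, 27 gained it and 3 reversed. The reported count was above 0 only in the APOE4 line, the APOE3 line and the fit of tau over all mice. Most unchanged counts were therefore 0 beside 0. A fall from 9 to 6, as with limma in PS/E3H against E3H, also counted as unchanged. In PS/E3H against E3H, leaving out 1 mouse gave 1 to 10 members, beside 0.522% to 12.4% of all genes. In PS/E4H against E4H it gave 8 to 10 members, beside 5.54% to 16.5% of all genes. The counts of members thus moved along with the calls over the whole table. In PS/E2H against E2H, DESeq2 called 3 members and 1 fit of all 6 groups 3. In E2H against E3H, DESeq2 called 3, the fit of all 6 groups 1, leaving out E2H mouse 2 and PS/E2H mouse 4 together 1, and leaving out 1 mouse 0 to 1. DESeq2 called 2 in E4H against E2H, 1 for APOE2 against APOE3 over all mice and 1 for the interaction of APOE4 against APOE2. For APOE2 against APOE3 over all mice, leaving out 1 mouse gave 0 to 2 (2 without PS/E2H mouse 3, 1 without PS/E4H mouse 3). S100b in PS/E2H against E2H changed sign without E2H mouse 1 (log2 -0.0195), without E2H mouse 3 (log2 -0.019) and without PS/E2H mouse 1 (log2 -0.0449), within a range of -0.0449 to 0.0972 over the mice left out. Aqp4 in PS/E2H against E2H ran from 0.132 to 0.704 over the alternatives without passing. The cause of these moves was not tested.

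The replicate numbers did not pair the mice, since deviations of same-numbered mice correlated at -0.0815 to 0.0446 over 30 pairs, with 0 over 0.1. With the replicate block, 2 members were called in PS/E2H against E2H, against 0 without it, while the genes called over the whole table rose from 155 to 246 there (1.19%) and fell from 3252 to 1249 in PS/E4H against E4H and from 1141 to 529 in PS/E3H against E3H. DESeq2 called 2327 genes in PS/E3H against E3H, 635 against 155 in PS/E2H against E2H, 599 against 37 in E2H against E3H, 134 against 34 in E4H against E3H, 293 against 45 in E4H against E2H, 148 against 23 in PS/E2H against PS/E3H, 44 against 4 in PS/E4H against PS/E3H and 224 against 24 in PS/E4H against PS/E2H. Over all mice, APOE2 against APOE3 ran from 80 without E2H mouse 2 and PS/E2H mouse 4 to 2500 without PS/E2H mouse 3, beside 757, and APOE4 against APOE2 from 81 to 853, beside 145. The groups hold 3 or 4 mice, and age, paralysis and strain background were not separated from tau. Among PS19 mice age at death was not separated from isoform. Sex was not a term of the fits, and it was addressed only by leaving out the Y-positive libraries.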
